A study of Mus musculus with 24 samples.

Results

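Cerebellins, C1q-like proteins and neurexins are partners at the synapse, and their genes were followed here across 4 brain areas of mice kept under chronic mild stress (CMS). The genes were Cbln1, Cbln2, Cbln3 and Cbln4, C1ql1, C1ql2 and C1ql3, and Nrxn2 and Nrxn3. Every probe set whose platform annotation gives 1 of these 9 symbols was taken, which gave 19 of the 45037 probe sets measured and 9 of 18193 genes. In build GRCm38.p6, Cbln1 lies at chr8:87468853-87472592, Cbln3 at chr14:55878920-55884256, Cbln4 at chr2:172036336-172043466 and C1ql1 at chr11:102939264-102946716. C1ql2 lies at chr1:120340582-120343174, C1ql3 at chr2:13001887-13010864, Nrxn2 at chr19:6418756-6533217 and Nrxn3 at chr12:88722701-90334935, while Cbln2 is on chromosome 18. The genes were chosen because their CMS and control values were already known to differ in the amygdala and hippocampus, so the values of those areas are a description without a test. The cerebral cortex and the prefrontal cortex were not used in that choice and were tested, though earlier results of these data were known.

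Expression was measured on 24 Affymetrix mouse genome arrays, 3 per group. The CMS groups were amygdala, hippocampus, cerebral cortex and also prefrontal cortex from wild-type male C57BL/6 mice aged 6 to 8 weeks by their age label (the free-text descriptions give other upper ends), exposed to unpredicted stressors on 6 days per week for 4 weeks in the same order for all mice. The control groups were the same areas of mice of the same strain, sex, genotype and age without stressors. The study's results name independent mice and its methods name pooled RNA, so a p-value may describe only the spread between arrays. Each value is on the log2 scale relative to the median of its own probe set over the 24 arrays. A value of 0 is therefore the middle of the arrays, and levels cannot be set against each other between genes.

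Cerebellins are small secreted proteins that end in a C1q domain. From the presynaptic side they bind neurexins and, across the cleft, glutamate receptors of the delta type, and so hold both sides of a synapse together. Cerebellin 1, from cerebellar granule cells, is the best known of these bridges, and some thalamic nuclei make it too. C1q-like proteins are close relatives that bind the adhesion receptor Bai3 (Adgrb3). C1ql2 and C1ql3 are products of dentate granule cells, where they bind neurexin 3 and gather kainate receptors at mossy fibre synapses. Neurexins themselves are presynaptic receptors with many splice forms, and a probe set reads only those forms that contain its target.

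Promoters are shown for the 3 genes whose CMS arrays all lay below the control arrays in both the amygdala and the hippocampus. RefSeq promoters in build GRCm38.p6, from 250 bases before to 50 bases after the start of the gene, matched 5 of the 9 genes. Those of C1ql2 (chr1:120340332-120340631, plus strand), C1ql3 (chr2:13010815-13011114, minus strand) and Cbln4 (chr2:172043417-172043716, minus strand) read, with each E-box motif CANNTG in capitals:
C1ql2: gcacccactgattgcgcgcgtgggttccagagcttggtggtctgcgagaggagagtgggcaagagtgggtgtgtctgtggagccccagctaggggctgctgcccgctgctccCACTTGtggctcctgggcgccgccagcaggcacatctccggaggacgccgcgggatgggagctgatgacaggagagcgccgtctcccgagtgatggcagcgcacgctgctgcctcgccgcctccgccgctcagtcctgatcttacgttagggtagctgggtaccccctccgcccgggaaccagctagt
C1ql3: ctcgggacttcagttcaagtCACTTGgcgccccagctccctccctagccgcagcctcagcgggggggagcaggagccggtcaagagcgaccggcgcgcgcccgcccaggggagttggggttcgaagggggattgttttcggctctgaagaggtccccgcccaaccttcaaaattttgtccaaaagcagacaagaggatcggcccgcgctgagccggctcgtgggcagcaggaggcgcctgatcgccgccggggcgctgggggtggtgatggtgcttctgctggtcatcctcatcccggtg
Cbln4: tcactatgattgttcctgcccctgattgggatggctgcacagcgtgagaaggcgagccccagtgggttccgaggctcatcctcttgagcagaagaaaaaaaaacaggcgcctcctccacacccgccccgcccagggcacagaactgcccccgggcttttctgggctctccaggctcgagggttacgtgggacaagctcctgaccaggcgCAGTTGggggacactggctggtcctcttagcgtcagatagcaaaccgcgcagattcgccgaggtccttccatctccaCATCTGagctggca
The E-box stands at position -138 of C1ql2 and -230 of C1ql3, counted from 0 at the first transcribed base, and both copies read CACTTG. Cbln4 has E-boxes at -41 and 36 with other inner letters. An E-box is common, and 72.3% of 32851 promoters of this length hold 1 on either strand. No match was found in these 3 windows on either strand for the cyclic AMP response element TGACGTCA (1.79% of all promoters), the AP-1 motif TGANTCA (7.81%), the EGR motif GCGNGGGCG (5.55%) or TATAAA (13.6%). The GC content was 67.3% for C1ql2, 66.3% for C1ql3 and 60.3% for Cbln4, against a median of 52.7%.

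The arrays carried the marks of their areas. The mean of 7 dentate gyrus markers lay between 2.38 and 2.71 in the hippocampal arrays and between -0.17 and 0.09 in all others, and that of 13 cortical layer markers lay between 0.39 and 0.50 in the cerebral cortex. Markers of neighbouring tissue also differed between CMS and control arrays, counted here as genes past an adjusted p of 0.05 and a fold of 2. Thalamus and habenula markers in the hippocampus (8 of 20 higher with CMS), striatum markers in the cerebral cortex (10 of 14 higher) and choroid plexus markers in the cerebral cortex (10 of 10 lower) were the main ones. Among all hippocampal genes 0.143% passed as higher, and for cerebral cortex 0.192% passed as higher and 0.165% as lower. Some markers used here and below, mainly of thalamus, striatum and choroid plexus, were already among the most changed genes that the study listed from these arrays. Their counts were therefore partly known in advance and are a description. Bacterial RNAs added as hybridisation controls also differed, with means of 0.75 to 0.90 in the amygdala with CMS and 0.01 to 0.02 in its controls. In the hippocampus they were -1.50 to -1.46 with CMS and -1.14 to -1.06 in controls. Prefrontal means were 0.12 to 0.17 with CMS and -0.21 to -0.11 in controls, and those of the cerebral cortex -0.04 to 0.03 and 0.04 to 0.24. The 2 treatments thus did not overlap in any area. The part of dissection and of hybridisation in the values below was not tested.

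**Figure D1:**
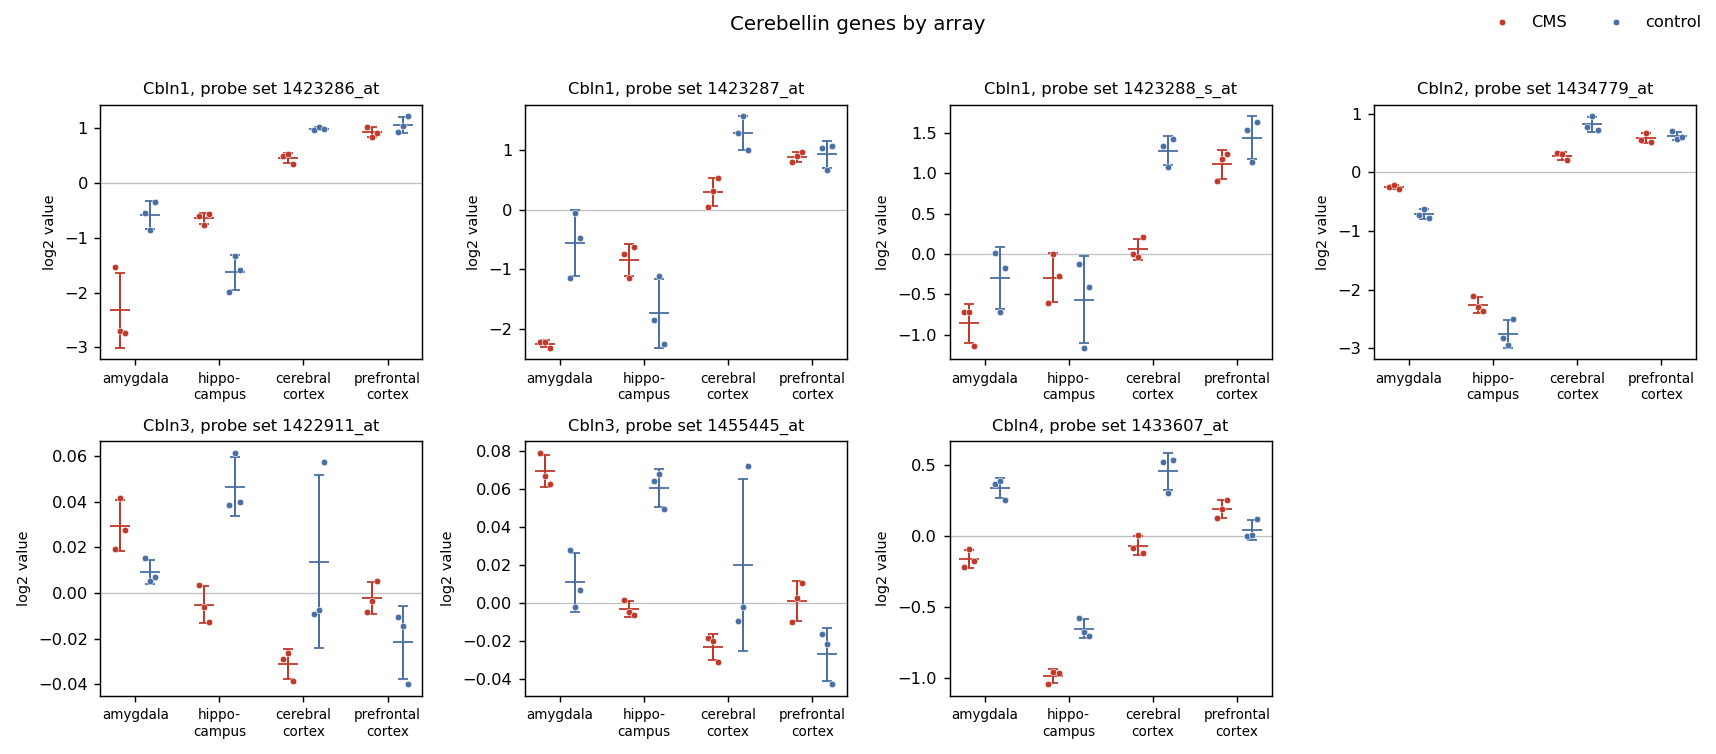
Log2 values of the 7 probe sets of Cbln1 to Cbln4 in the 4 brain areas, relative to the median of each probe set over 24 arrays. Points are arrays (CMS red, control blue), the horizontal bars are means and the whiskers are 1 SD (n = 3), and each panel has its own axis. Cbln1 is lower with CMS in the amygdala and higher in the hippocampus in the first panel, and Cbln3 spans only 0.10 to 0.12 on the log2 scale.

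Cbln1 showed the clearest split between areas. In the amygdala, probe set 1423286_at stood at -1.54, -2.70 and -2.73 in the CMS arrays, against -0.54, -0.87 and -0.35 in the control arrays. The CMS arrays were all lower, by a mean of 3.34-fold, but the first of them lay nearer to control array 2 than to the other CMS arrays. In the hippocampus the same probe set stood at -0.61, -0.76 and -0.57 with CMS, against -1.98, -1.34 and -1.59 in controls. There all CMS arrays were higher, at 0.99 ± 0.18 above the controls on the log2 scale (SE), and the amygdala with CMS was the area with the lowest mean while in controls the hippocampus was.

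The other Cbln1 probe sets separated the groups less well. In the amygdala, 1423287_at stood at -2.22, -2.21 and -2.31 with CMS and at -1.15, -0.05 and -0.48 in controls, a 3.22-fold lower mean without overlap. Its hippocampal arrays overlapped, at -0.75, -1.15 and -0.63 with CMS and -1.86, -1.11 and -2.25 in controls, since control array 2 was as high as a CMS array. The third, 1423288_s_at, overlapped in both areas, with differences of -0.57 ± 0.24 in the amygdala and 0.27 ± 0.32 in the hippocampus (SE). Its hippocampal sign is not settled, since the difference was -0.03 without control array 2. Over the 24 arrays the 3 probe sets were correlated at r = 0.84 to 0.95, a figure that reflects the areas as well as the treatment.

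The thalamic and cerebellar markers stood as follows beside these values. The mean of 20 thalamus and habenula markers in the hippocampus was 0.48 to 0.61 with CMS and -0.41 to -0.32 in controls, and Tcf7l2, a transcription factor of the thalamus, was 1.44 higher on the log2 scale. In the amygdala, where Cbln1 was lower, none of the 20 passed both thresholds in either direction and the means overlapped, at -0.06 to 0.10 with CMS and -0.03 to 0.03 in controls. None of the 8 cerebellar markers passed both thresholds in any area. In the hippocampus the 3' minus 5' probe sets, a sign of RNA integrity, were -0.14 to -0.12 with CMS and -0.10 to -0.04 in controls for Gapdh, and -0.55 to -0.46 with CMS and -0.45 to -0.42 in controls for beta-actin. In tissue of this kind, fewer cells that make a transcript and less of it per cell cannot be told apart.

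Cbln1 was also lower with CMS in the cerebral cortex, where it was tested. Probe set 1423288_s_at stood at 0.00, -0.04 and 0.21 with CMS, against 1.34, 1.08 and 1.42 in controls, so that the groups lay far apart. It fell by 1.22 ± 0.11 on the log2 scale (SE), 2.34-fold, with an adjusted p = 0.00575 (limma, Benjamini-Hochberg over all probe sets). Probe set 1423286_at stood at 0.49, 0.52 and 0.35 with CMS and at 0.97, 1.02 and 0.98 in controls, and it fell by 0.54 ± 0.05 (adjusted p = 0.00613, limma). Probe set 1423287_at stood at 0.05, 0.31 and 0.53 with CMS and at 1.29, 1.56 and 1.00 in controls, a difference of -0.98 ± 0.19 (adjusted p = 0.0377, limma). The last call was lost when any array but control array 3 was left out, with adjusted p up to 0.113, while the other 2 were kept without each array. In a fit of all 24 arrays, which share 1 spread, 1423286_at did not pass (adjusted p = 0.0933, limma). The mean of the 3 probe sets fell by 0.92 ± 0.05 on the log2 scale (SE, adjusted p = 0.00175, limma).

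Prefrontal Cbln1 arrays of the 2 treatments overlapped for all 3 probe sets. Values were 0.79 to 1.24 with CMS and 0.67 to 1.64 in controls over the 3 probe sets, and the differences were -0.14 ± 0.09, -0.04 ± 0.12 and -0.33 ± 0.16 on the log2 scale (SE), with adjusted p of 0.413, 0.825 and 0.370 (limma). Both cortical areas stood above the amygdala and hippocampus for Cbln1 in controls without overlap. The 2 cortical areas overlapped with each other in controls.

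Cbln2, a cerebellin that also binds neurexins, was higher with CMS in both areas by which the genes were chosen. In the amygdala it stood at -0.24, -0.21 and -0.28 with CMS, against -0.73, -0.62 and -0.78 in controls, and in the hippocampus at -2.11, -2.30 and -2.37 with CMS, against -2.82, -2.95 and -2.50 in controls. Neither pair of groups overlapped, and the differences were 0.47 ± 0.05 and 0.50 ± 0.14 on the log2 scale (SE). The cerebral cortex went the other way. There Cbln2 stood at 0.33, 0.32 and 0.21 with CMS and at 0.78, 0.96 and 0.72 in controls, and it fell by 0.54 ± 0.07 (adjusted p = 0.0153, limma), a call that was lost without CMS array 2 or 3, at an adjusted p of up to 0.0548. In the prefrontal cortex the arrays overlapped at 0.52 to 0.68 with CMS and 0.57 to 0.71 in controls (difference -0.04 ± 0.06, adjusted p = 0.613, limma). The hippocampus was the lowest area for Cbln2 by a wide margin in both treatments.

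Cbln4, a cerebellin that also binds the netrin receptor Dcc, was lower with CMS in the amygdala, hippocampus and cerebral cortex. It stood at -0.22, -0.09 and -0.18 with CMS and 0.37, 0.39 and 0.25 in controls of the amygdala, and at -1.04, -0.95 and -0.96 with CMS and -0.58, -0.68 and -0.70 in controls of the hippocampus. The groups did not overlap in either area, with differences of -0.50 ± 0.05 and -0.33 ± 0.04 on the log2 scale (SE). In the cerebral cortex the arrays stood at -0.09, 0.00 and -0.12 with CMS and at 0.52, 0.30 and 0.54 in controls. The fall of 0.52 ± 0.08 passed the test (adjusted p = 0.0175, limma) but not when CMS array 1 or 3 or control array 1 or 3 was left out (adjusted p up to 0.0674). In the prefrontal cortex the CMS arrays, at 0.12 to 0.25, lay just above the control arrays, the nearest of each both rounding to 0.12, and the difference of 0.15 ± 0.05 did not pass (adjusted p = 0.198, limma).

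Cbln3, which is known from cerebellar granule cells and needs Cbln1 for its secretion, scarcely varied. Its probe sets spanned 0.10 and 0.12 on the log2 scale over all 24 arrays, the narrowest ranges of the 19. Its differences were between 0.02 and 0.06 in the amygdala and prefrontal cortex and between -0.06 and -0.04 in the hippocampus and cerebral cortex, but centring each array on its median turned that of 1422911_at in the amygdala to -0.0046. Over all probe sets the median difference was 0.03 (amygdala), 0.02 (prefrontal cortex), -0.05 (hippocampus) and -0.03 (cerebral cortex). Neither probe set passed the test in the cortical areas, with adjusted p of 0.347 to 0.428 (limma).

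**Figure D2:**
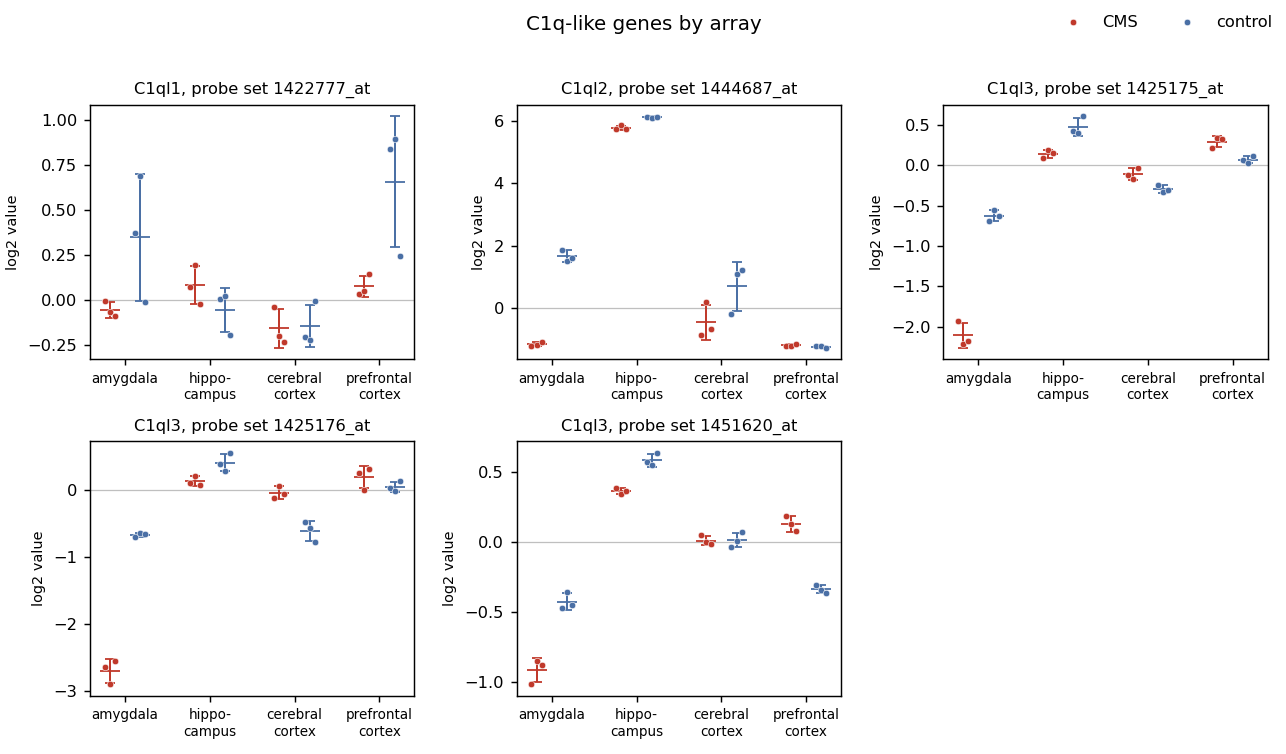
Log2 values of the 5 probe sets of C1ql1, C1ql2 and C1ql3 in the 4 brain areas, relative to the median of each probe set over 24 arrays. Points are arrays (CMS red, control blue), the horizontal bars are means and the whiskers are 1 SD (n = 3), and each panel has its own axis. C1ql2 is far higher in the hippocampus than elsewhere, and its CMS arrays of the amygdala lie at the level of the prefrontal cortex.

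The C1q-like genes held the widest difference of all 19 probe sets. C1ql2 in the amygdala stood at -1.19, -1.19 and -1.07 with CMS, against 1.88, 1.52 and 1.61 in controls, with a gap far wider than the spread of either group. The CMS mean was 7.06-fold lower, a log2 difference of -2.82 ± 0.10 (SE). The CMS values sat at the level of the prefrontal cortex, where all 6 arrays lay between -1.26 and -1.14. A table centred in this way does not say whether that level is the array's floor.

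In the hippocampus, the highest area for C1ql2, the arrays stood at 5.73, 5.86 and 5.73 with CMS, against 6.12, 6.09 and 6.14 in controls. The CMS arrays were again all lower, though only by 0.34 ± 0.04 on the log2 scale (SE). In the cerebral cortex C1ql2 scattered widely within each group, at -0.86, 0.20 and -0.68 with CMS and -0.20, 1.09 and 1.21 in controls, and the difference of -1.15 ± 0.49 did not pass (adjusted p = 0.254, limma), though it did in a fit of all 24 arrays (adjusted p = 0.00702, limma). The prefrontal difference was 0.04 ± 0.03 (adjusted p = 0.420, limma). In controls the order was hippocampus, amygdala, cerebral cortex, prefrontal cortex without overlap between neighbours, while with CMS the amygdala and prefrontal cortex overlapped at the bottom.

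C1ql3 was lower with CMS in the amygdala in all 3 of its probe sets. Probe set 1425176_at stood at -2.64, -2.90 and -2.55 with CMS and at -0.70, -0.65 and -0.66 in controls, a 4.09-fold lower mean. Probe set 1425175_at stood at -1.93, -2.21 and -2.17 with CMS and at -0.69, -0.56 and -0.63 in controls, 2.79-fold lower, and 1451620_at at -1.02, -0.85 and -0.88 with CMS and at -0.47, -0.36 and -0.45 in controls, 1.40-fold lower. None of these groups overlapped, and the probe sets differed mainly in how much they moved.

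In the hippocampus all 3 C1ql3 probe sets were lower with CMS too, without overlap and by far less. Probe set 1425175_at stood at 0.09, 0.18 and 0.15 with CMS and at 0.42, 0.40 and 0.60 in controls, and the differences of the 3 probe sets were -0.33 ± 0.06, -0.28 ± 0.08 and -0.22 ± 0.03 on the log2 scale (SE). C1ql3 thus had the same sign in both of these areas in all its probe sets. The mean of the 7 dentate gyrus markers in the hippocampus was 2.38 to 2.51 with CMS and 2.62 to 2.71 in controls. By the adjusted p alone 2 of the 7 were lower and 0 higher, beside 24.9% and 4.66% of all genes. The part of this marker shift in the hippocampal C1ql2 and C1ql3 values was not tested.

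The cortex showed higher C1ql3 with CMS, but different probe sets passed the test in its 2 areas. Probe set 1425175_at was higher without overlap in both, by 0.19 ± 0.05 on the log2 scale (SE) in cerebral and 0.22 ± 0.04 in prefrontal cortex. It passed in neither with each area fitted alone (adjusted p = 0.0851 and 0.0542, limma). In the cerebral cortex, 1425176_at stood at -0.12, 0.07 and -0.06 with CMS and at -0.47, -0.57 and -0.77 in controls, and it rose by 0.57 ± 0.09 on the log2 scale (SE, adjusted p = 0.0238, limma). That call was lost without CMS array 1, 2 or 3 or control array 2, with adjusted p up to 0.0795. Probe set 1451620_at overlapped there, with a difference smaller than its SE (adjusted p = 0.942, limma). In the prefrontal cortex, 1451620_at stood at 0.18, 0.13 and 0.07 with CMS and at -0.31, -0.34 and -0.37 in controls and rose by 0.47 ± 0.03 (adjusted p = 0.00788, limma), while 1425176_at overlapped (0.14 ± 0.09, adjusted p = 0.415, limma). The prefrontal call was kept without each array, at adjusted p up to 0.0399. Beside it, the difference between 3' and 5' probe sets of beta-actin in the prefrontal cortex, a sign of RNA integrity, was -0.15 to -0.03 with CMS and 0.08 to 0.22 in controls, and its part was not tested. As the mean of its 3 probe sets, C1ql3 rose by 0.25 ± 0.03 in cerebral and by 0.28 ± 0.03 in prefrontal cortex (SE, adjusted p = 0.0104 and 0.0110, limma).

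C1ql1, known as the climbing fibre ligand of Bai3 in the cerebellum, did not pass the test in either cortical area with each area fitted alone. Its widest difference was in the prefrontal cortex, at 0.03, 0.05 and 0.14 with CMS and 0.84, 0.90 and 0.24 in controls, where the groups did not overlap but control array 3 stood near the CMS arrays (-0.58 ± 0.19, adjusted p = 0.185, limma). It passed in a fit of all 24 arrays (adjusted p = 0.0286, limma) and with array weights, at -0.83 (adjusted p = 0.00125, limma). The amygdala arrays had a like layout, at -0.01, -0.07 and -0.09 with CMS and 0.37, 0.69 and -0.01 in controls.

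Markers of the areas stood as follows beside the C1q-like values of the amygdala. The mean of 7 dentate gyrus markers was -0.14 to -0.12 with CMS and -0.08 in controls, far below its hippocampal level, and none of the 7 passed both thresholds. Of 12 markers of the hippocampal CA fields 2 were past both in the amygdala, Fibcd1 and Spink8, with log2 differences of -1.81 and -1.33, as were Tac2 and Lhx9 among 10 amygdala markers (-1.58 and -1.83). Of all genes, 0.44% were past both as lower there. By the adjusted p alone, 4 of the 12 CA field markers were lower and 1 higher, with a median difference of 0.01 on the log2 scale. Of the 10 amygdala markers 4 were lower and 1 higher, with a median of -0.35. The median over all genes was 0.02, and 8.84% of them were lower and 10.5% higher. The mean of the amygdala markers was 0.56 to 0.59 with CMS and 1.04 to 1.11 in controls. That of 16 hypothalamus markers was 0.70 to 0.90 with CMS and 1.40 to 1.56 in controls. Of these 16, 2 were past both thresholds as lower. The mean of 14 striatum markers was 1.77 to 1.82 with CMS and 1.43 to 1.45 in controls. None of these 14 passed both thresholds, while 10 were higher and 0 lower by the adjusted p alone. The difference between 3' and 5' probe sets, a sign of RNA integrity, also stood apart in the amygdala, at 0.10 to 0.17 with CMS and -0.02 to 0.02 in controls for Gapdh, and at 0.06 to 0.09 with CMS and -0.06 to 0.01 in controls for beta-actin. The part of the markers and of RNA integrity in the C1ql2, C1ql3 and other amygdala values was not tested.

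**Figure D3:**
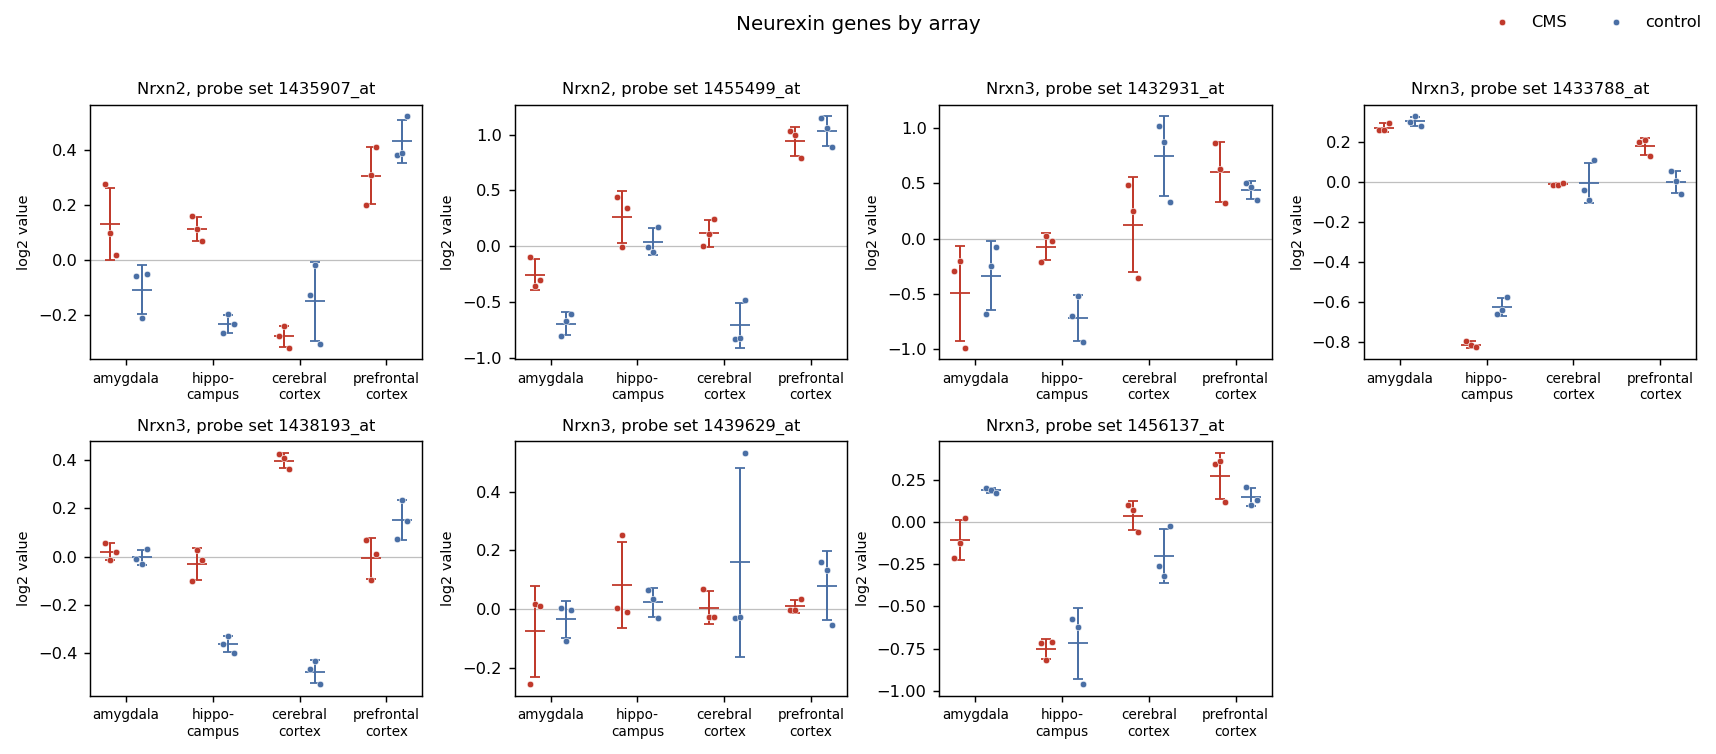
Log2 values of the 7 probe sets of Nrxn2 and Nrxn3 in the 4 brain areas, relative to the median of each probe set over 24 arrays. Points are arrays (CMS red, control blue), the horizontal bars are means and the whiskers are 1 SD (n = 3), and each panel has its own axis. The widest gaps between treatments are in the cerebral cortex, for Nrxn2 1455499_at and Nrxn3 1438193_at.

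The neurexins, the presynaptic receptors, had their widest differences in the cerebral cortex. Nrxn2 probe set 1455499_at stood at 0.00, 0.11 and 0.24 with CMS in the cerebral cortex, against -0.83, -0.82 and -0.48 in controls. It rose by 0.83 ± 0.12 on the log2 scale (SE, adjusted p = 0.0175, limma), and this was lost without CMS array 2 or 3 or control array 1 or 2 (adjusted p up to 0.0644). The mean of both Nrxn2 probe sets rose by 0.35 ± 0.04 (adjusted p = 0.00815, limma). The second Nrxn2 probe set, 1435907_at, had an opposite sign there, with overlapping arrays (-0.13 ± 0.08, adjusted p = 0.351, limma). In the amygdala both were higher with CMS without overlap, by 0.44 ± 0.09 and 0.24 ± 0.08, and in the hippocampus 1435907_at was higher by 0.35 ± 0.03 without overlap. Prefrontal cortex was the highest area of Nrxn2 in both treatments by mean, and the arrays overlapped there for both probe sets (-0.09 ± 0.10 and -0.12 ± 0.07, adjusted p = 0.511 and 0.391, limma).

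Nrxn3 gave different answers from its 5 probe sets. Probe set 1438193_at stood at 0.42, 0.41 and 0.36 with CMS in the cerebral cortex, against -0.47, -0.43 and -0.53 in controls, the lowest adjusted p of the 19 probe sets in that area. It rose by 0.87 ± 0.03 on the log2 scale (SE), 1.83-fold, with an adjusted p = 0.000828 (limma), and kept the call without each array. The other 4 did not pass there: 1432931_at differed by -0.62 ± 0.28, 1433788_at by less than its SE, 1439629_at by -0.15 ± 0.17 and 1456137_at by 0.24 ± 0.09 (adjusted p of 0.285, 0.933, 0.508 and 0.221, limma). The mean of the 5 differed by 0.07 ± 0.06 (adjusted p = 0.476, limma).

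Nrxn3 probe sets also parted in the hippocampus. Probe set 1432931_at stood at -0.21, 0.02 and -0.02 with CMS, against -0.70, -0.52 and -0.93 in controls, and 1438193_at was higher by 0.33 ± 0.04, both without overlap. Probe set 1433788_at was lower without overlap, at -0.80, -0.82 and -0.83 with CMS and -0.66, -0.64 and -0.58 in controls. In the amygdala only 1456137_at separated, at -0.21, -0.12 and 0.02 with CMS and 0.20, 0.19 and 0.17 in controls. No prefrontal Nrxn3 probe set passed the test with that area fitted alone, where the smallest adjusted p was 0.0691 for 1433788_at (0.18 ± 0.04, limma). In a fit of all 24 arrays 1433788_at and 1438193_at passed (adjusted p = 0.00775 and 0.0391, limma), and with array weights these 2, 1439629_at and 1456137_at did (adjusted p of 0.00280 to 0.0345, limma). Over the 24 arrays, 1433788_at and 1456137_at were correlated at r = 0.88, and the other pairs at r = -0.24 to 0.45, so the mean of the gene hides unlike readings. Which splice forms each probe set reads was not analysed here.

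In the cerebral cortex the cerebellin, C1q-like and neurexin values stood beside a shift of other tissue. The mean of 14 striatum markers was -0.92 to -0.84 with CMS and -2.57 to -2.39 in controls, and that of 10 choroid plexus markers was -1.18 to -1.11 with CMS and 1.89 to 2.08 in controls. The difference between 3' and 5' probe sets of beta-actin, a sign of RNA integrity, was -0.45 to -0.36 with CMS and 0.10 to 0.30 in controls. Their part in the values of Cbln1, Cbln2, Cbln4, C1ql3, Nrxn2 and Nrxn3 was not tested.

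**Figure D4:**
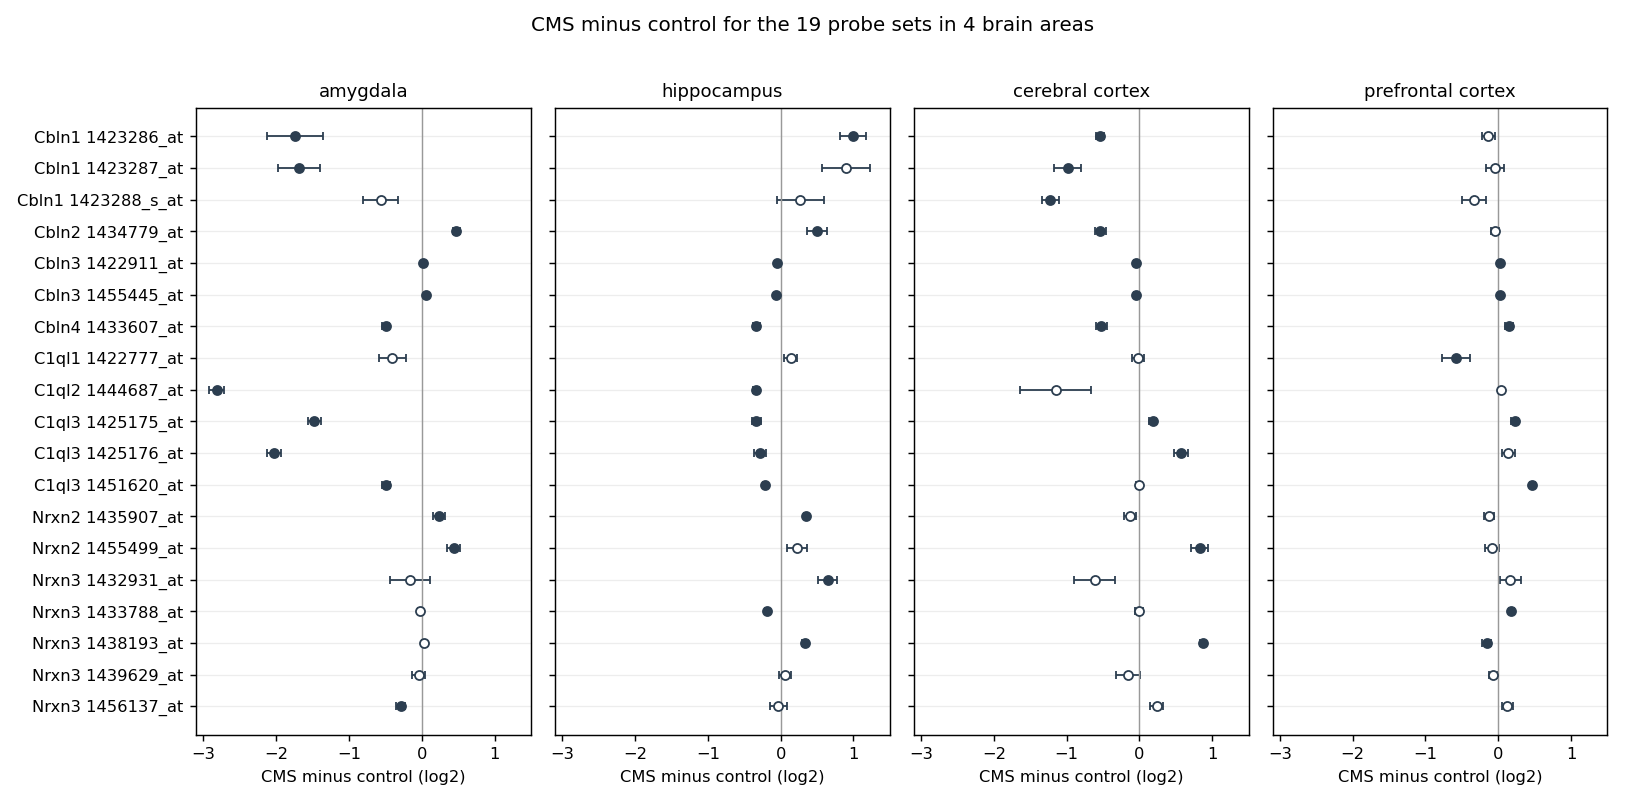
Difference between CMS and control on the log2 scale for each of the 19 probe sets in the 4 brain areas, with the standard error from limma as whiskers. Filled points mark probe sets with no overlap between the 3 CMS arrays and the 3 control arrays, and open points overlap. The differences reach from -2.82 (C1ql2, amygdala) to 0.99 (Cbln1, hippocampus).

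Between the amygdala and the hippocampus, 8 of the 19 probe sets (42.1%) had differences of opposite sign, against 65.2% of all probe sets. Opposite signs with no overlap in either area were found for 3 (15.8%), against 34.4% of all, and these were Cbln1 1423286_at and both Cbln3 probe sets, of which 1422911_at has no settled sign in the amygdala. Leaving out 1 array also turned the sign of Cbln1 1423288_s_at in the hippocampus (control array 2), Nrxn3 1432931_at in the amygdala (CMS array 3), Nrxn3 1439629_at in the amygdala (CMS array 1) and hippocampus (CMS array 2), and Nrxn3 1456137_at in the hippocampus (CMS array 2 or control array 1 or 2), so the count of 8 is not settled. Same signs with no overlap were found for 5 lower probe sets of 3 genes (C1ql2, C1ql3 and Cbln4) and 2 higher ones of 2 genes (Cbln2 and Nrxn2).

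By the rule of an adjusted p under 0.05 and a fold over 2, 5 probe sets were past it as lower in the amygdala, of C1ql2, C1ql3 and Cbln1, where 0.777% of all probe sets were. None was past it in the hippocampus, where 0.651% of all were in either direction. Arrays did not overlap for 13 of the 19 in each of these areas, where 59.2% (amygdala) and 60.6% (hippocampus) of all had no overlap. Nothing is read from these counts, since the genes were chosen by these values. Without CMS array 2 or 3 or control array 2 or 3 of the amygdala the count was 3, from C1ql2 and C1ql3 alone. Without hippocampal control array 2 or 3, Cbln1 1423286_at passed.

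In the cerebral cortex 1 probe set passed both thresholds, Cbln1 1423288_s_at as lower, where 0.244% of all probe sets did. By the adjusted p alone 3 were higher and 5 lower, beside 5.49% and 3.67% of all probe sets. In the prefrontal cortex none passed both, where 0.209% of all did in either direction, and by the adjusted p alone 1 was higher and 0 lower, beside 2.78% and 2.48%. Arrays did not overlap for 11 probe sets in cerebral and 8 in prefrontal cortex, where 55.6% and 49.4% of all probe sets had none. The median size of the difference, whatever its sign, was 0.52 on the log2 scale in cerebral and 0.14 in prefrontal cortex, against 0.08 and 0.05 over all probe sets. An exact two-sided test of a single value in groups of 3 cannot go below a p of 0.1, so the tests rest on the spread that limma shares across probe sets.

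**Figure D5:**
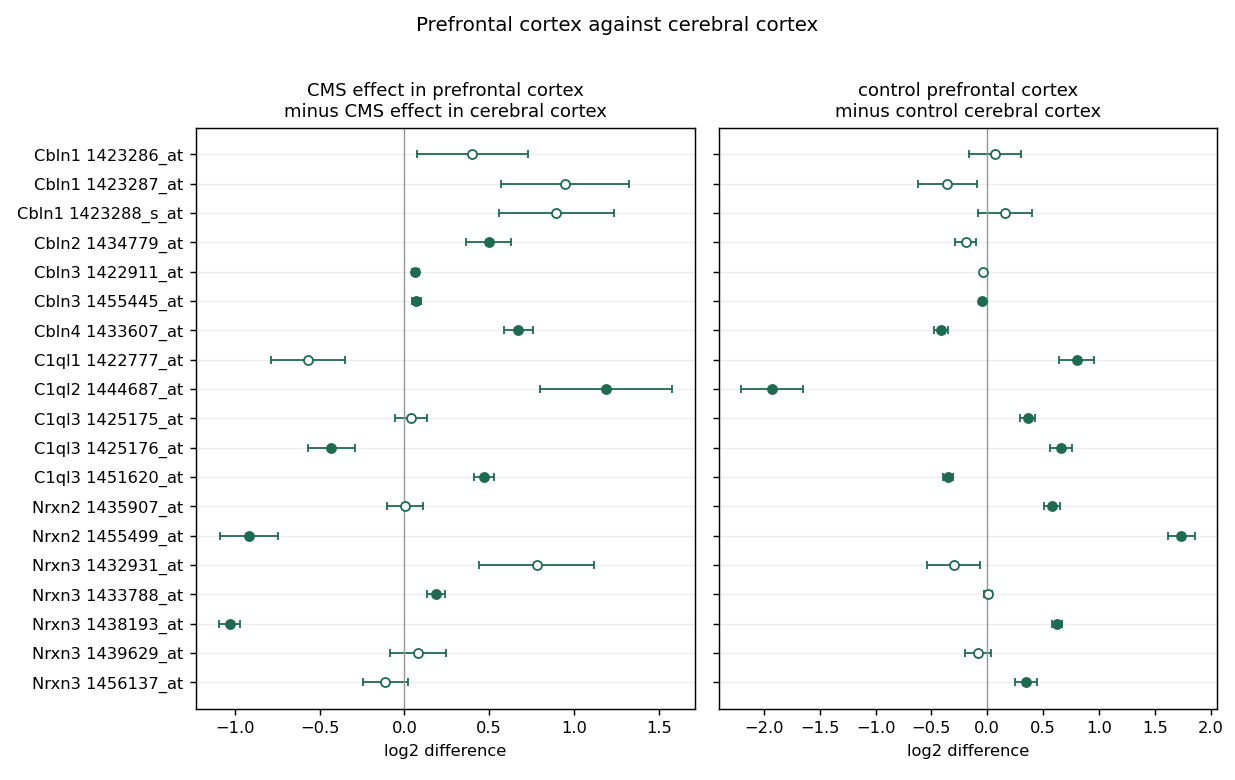
Log2 differences between prefrontal and cerebral cortex for the 19 probe sets, with standard errors as whiskers, from 1 limma fit of all 24 arrays. The left panel sets the CMS effect of the prefrontal cortex against that of the cerebral cortex and the right panel compares control arrays. Filled points have an adjusted p under 0.05 (10 on the left, 11 on the right).

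Whether the CMS effect itself differed between the 2 cortical areas was tested in 1 fit of all 24 arrays. For 7 probe sets it was higher in the prefrontal cortex and for 3 lower (adjusted p under 0.05), where 14% of all probe sets were higher and 6.71% lower, 20.8% in all. Nrxn3 1438193_at had the most negative difference, at -1.03 ± 0.06 on the log2 scale (SE, adjusted p = 8.32e-09, limma), with CMS minus control at -0.16 in the prefrontal cortex and 0.87 in the cerebral cortex. Nrxn2 1455499_at differed by -0.92 ± 0.17 (adjusted p = 0.00168), and Cbln4 by 0.67 ± 0.09 (adjusted p = 4.09e-05), with CMS minus control at 0.15 in the prefrontal and -0.52 in the cerebral cortex. C1ql3 split by probe set, at 0.47 ± 0.06 for 1451620_at (adjusted p = 3.71e-05) and -0.43 ± 0.14 for 1425176_at (adjusted p = 0.0401, limma). Its probe set 1425175_at did not pass, at 0.04 ± 0.10 (adjusted p = 0.795, limma). C1ql2 (1.19 ± 0.39, adjusted p = 0.0430) and Cbln2 (0.50 ± 0.13, adjusted p = 0.0209) were higher too, by limma. The calls of Cbln4, C1ql3 1451620_at, Nrxn2 and Nrxn3 1438193_at were kept without each of the 12 arrays of both areas, that of Cbln2 was lost in 1 of these 12 fits, without CMS array 3 of the cerebral cortex (adjusted p = 0.0533), and that of C1ql2 in 10 (adjusted p up to 0.0994), all but those without CMS array 2 or control array 1 of the cerebral cortex. That of C1ql3 1425176_at was lost in 6 of the 12 (adjusted p up to 0.102). The 3 Cbln1 probe sets were lower by mean in both areas, and with each area fitted alone they passed only in the cerebral cortex. For them the difference between the areas did not pass, at 0.40 ± 0.33, 0.95 ± 0.38 and 0.89 ± 0.34 (adjusted p = 0.376, 0.0713 and 0.0623, limma). Fitted on the 12 arrays of both areas alone, all 3 passed (adjusted p = 0.0493, 0.0388 and 0.0296, limma), while C1ql2 (0.152) and C1ql3 1425176_at (0.0898) no longer did.

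Control arrays of the 2 cortical areas differed as well, for 7 probe sets higher and 4 lower in the prefrontal cortex, where 12.9% of all were higher and 19.2% lower, 32.1% in all. Nrxn2 1455499_at was 1.74 ± 0.12 higher in the prefrontal cortex on the log2 scale (SE), and C1ql2 was lower by 1.93 ± 0.28 there. Nrxn3 1438193_at (0.63 ± 0.04) and C1ql1 (0.80 ± 0.16, adjusted p = 0.000561, limma) were higher, and Cbln4 was lower by 0.41 ± 0.06. The 3 Cbln1 probe sets did not pass, at 0.07 ± 0.23, -0.36 ± 0.27 and 0.16 ± 0.24 (adjusted p of 0.834, 0.292 and 0.615, limma).

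Partners of these proteins were compared as means of the probe sets of each gene. Listed were 99 genes of receptors, other neurexin ligands, scaffolds, splicing factors, other synaptic adhesion proteins and other proteins with a C1q domain. Of these, 91 had a probe set of their own. In all areas together 1 passed both thresholds, as lower in the cerebral cortex (1.1%), where 0.165% of all genes did. That gene was Col8a2, a collagen chain with a C1q domain, which fell in the cerebral cortex by 1.07 ± 0.13 on the log2 scale (SE, adjusted p = 0.0105, limma), at -0.34, -0.19 and -0.33 with CMS and 1.00, 0.81 and 0.51 in controls. Single probe sets were listed only for the called or most changed partners of each list, so their total over the 91 is not known. Among those listed, besides that of Col8a2, 1 of Lin7c in the amygdala (log2 difference -1.38) was past both. So were 2 of Lrrtm2 in the cerebral cortex (1.04 and 1.23). With the most variable probe set of each gene, the partners past both numbered 3 (amygdala), 1 (hippocampus) and 6 (cerebral cortex).

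By the adjusted p alone, 10 of the 91 partners were higher and 19 lower with CMS in amygdala tissue, where 10.5% of all genes were higher and 8.84% lower. Hippocampal counts were also 10 higher and 19 lower, beside 4.66% and 24.9% of all genes. Cerebral cortex had 10 higher and 11 lower, beside 5.95% and 3.99%, and prefrontal cortex 4 higher and 5 lower, beside 4.45% and 3.92%. The median difference of the partners was -0.03, -0.01, -0.03 and -0.02 on the log2 scale in these 4 areas in turn, against 0.02, -0.05, -0.03 and 0.02 over all genes.

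Among the receptors, 3 of 5 fell in the amygdala: Dcc, the receptor that Cbln4 also binds, by 0.30 ± 0.02 (adjusted p = 0.00277, limma), Grik2, a kainate receptor subunit, by 0.38 ± 0.07 (adjusted p = 0.0244, limma), and the delta receptor Grid1, named after its value was seen, by 0.25 ± 0.03 (adjusted p = 0.0106, limma). The median of the 5 was -0.25 there. In the hippocampus Dcc alone passed, lower by 0.41 ± 0.08 (adjusted p = 0.0256, limma), and in the cerebral cortex Grik4 alone, a kainate receptor subunit also listed here as a CA field marker and named after its value was seen, lower by 0.35 ± 0.08 (adjusted p = 0.0479, limma). In the prefrontal cortex none passed.

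Of 13 neurexin ligands, 2 were higher and 4 lower in the amygdala by the adjusted p alone, beside 10.5% and 8.84% of all genes. Hippocampal counts were 3 higher and 5 lower, beside 4.66% and 24.9%. Those of the cerebral cortex were 2 higher and 0 lower, beside 5.95% and 3.99%, and prefrontal ones 2 higher and 1 lower, beside 4.45% and 3.92%. Lrrtm2, a postsynaptic leucine-rich protein that binds neurexins, rose most, in the cerebral cortex, at 0.97, 0.98 and 1.05 with CMS and 0.02, 0.09 and 0.00 in controls (0.96 ± 0.04, adjusted p = 0.000802, limma). It also rose in the hippocampus by 0.29 ± 0.06 and fell in the amygdala by 0.15 ± 0.03 (adjusted p = 0.0280 and 0.0349, limma). Nxph2, a secreted neurexin ligand, differed by -0.77 ± 0.30 in the amygdala, which did not pass (adjusted p = 0.132, limma).

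Khdrbs1, Khdrbs2 and Khdrbs3 are RNA-binding proteins that regulate neurexin splicing. None was higher by the adjusted p alone in any area, where 4.45% to 10.5% of all genes were, so nothing is read from that count. Khdrbs3 fell by 0.42 ± 0.05 in the amygdala, by 0.29 ± 0.04 in hippocampal tissue and by 0.22 ± 0.02 in cerebral cortex (adjusted p of 0.00940, 0.0125 and 0.00541, limma), and Khdrbs2 fell in the cerebral cortex by 0.71 ± 0.12 (adjusted p = 0.0251, limma). None of the 3 passed in prefrontal tissue. Lin7c, a scaffold of the presynaptic side, fell in the amygdala by 0.74 ± 0.06 (adjusted p = 0.00341, limma) and rose in the cerebral cortex by 0.53 ± 0.02 (adjusted p = 0.000839, limma), without overlap in either. Ppfia1, a liprin of the same side, fell in the amygdala by 0.49 ± 0.08 (adjusted p = 0.0204, limma). Of the postsynaptic scaffolds, Dlg2 fell in the amygdala by 0.14 ± 0.03 and rose in the hippocampus and cerebral cortex by 0.25 ± 0.03 and 0.48 ± 0.05 (adjusted p of 0.0214, 0.0148 and 0.00693, limma), and Dlgap1 fell in the cerebral cortex by 0.22 ± 0.04 (adjusted p = 0.0275, limma). Single Dlg2 probe sets ranged from -0.01 to 0.51 in the hippocampus and from 0.00 to 0.94 in the cerebral cortex. Those of Dlgap1 ranged from -0.42 to 0.02 in the cerebral cortex. Among other adhesion proteins, Lrrc4b fell in the amygdala by 0.71 ± 0.08 (adjusted p = 0.00705, limma) and Lrfn3 by 0.61 ± 0.11 (adjusted p = 0.0231, limma).

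The genes whose values ran most like each member over the 24 arrays differed from member to member. By Pearson's r they were Sirpa (0.94), Clstn1 (0.94) and Stk11 (0.93) for Cbln1, Gabrd (0.98), Mark1 (0.98) and Ptgfrn (0.98) for Cbln2, and Adcyap1 (0.97), Hspa4l (0.95) and Slf2 (0.94) for Cbln4. C1ql2 ran with Pip5k1b (0.98), Itga8 (0.97) and Slc26a4 (0.97), and C1ql3 with Acvr1 (0.98), Cpeb1 (0.96) and Ywhag (0.96). Nrxn2 ran with Tnpo3 (0.96), Ppp1cc (0.92) and Eomes (0.92), and Nrxn3 with Wls (0.94), Gria4 (0.93) and Ier3 (0.93). Tpsb2, Veph1 and Cyp2d13 came first for Cbln3 (all 0.99), over its narrow range, and C1ql1 had the least like neighbours, with Rhcg (0.78), 1810010H24Rik (0.76) and P3h3 (0.74). Between members, Cbln2 and C1ql2 ran opposite (r = -0.92) and Cbln2 and Nrxn3 together (r = 0.91). The arrays share 4 areas, so these values mostly describe which areas are high and low.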

How the data were processed

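Affymetrix mouse genome arrays were hybridised with RNA of CMS mice and control mice from 4 brain areas, 3 arrays per group. The deposited values are log2 intensities that the authors made with GCRMA in GeneSpring GX (version not given in the sources used here) and set relative to a baseline. Each probe set has a median of 0 over the 24 arrays, so absolute levels and depth are not known and the number of arrays limits the precision. GCRMA shares information across arrays and can compress low signals.

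Of 45101 probe sets, 64 Affymetrix controls were left out. Platform symbols gave 34945 probe sets 1 gene, 932 several and 9160 none. Probe sets of a gene were averaged. Within each area, CMS arrays were set against control arrays by limma 3.58.1 (R 4.3.3), two-sided, with Benjamini-Hochberg adjustment over all probe sets or genes. A call needed an adjusted p under 0.05 and a fold over 2. The areas were compared in 1 fit of all arrays. The script was tested on simulated data. Named were all 9 genes, up to 4 called or else 2 most changed genes of each partner list, and the 3 genes most correlated with each member. The members, lists and tests were chosen with earlier results of these data known. Alternatives were other scalings, filters, summaries, array weights, a replicate block and leaving out each array. Promoters came from RefSeq. Figures were drawn with matplotlib 3.10.9.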

Additional observations from a re-analysis of the deposited data

Results flagged for a closer look

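Differences between areas in the CMS effect, in log2 units, drew attention. Amygdala minus hippocampus was -2.73 for Cbln1 1423286_at, with all CMS arrays below the controls in the amygdala and all above in the hippocampus. For Cbln3 it was 0.072 at 1422911_at and 0.12 at 1455445_at, within a range of 0.10 and 0.12 over all arrays. These 3 differences were not tested.

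Prefrontal minus cerebral cortex differed by limma (adjusted p under 0.05) for 10 probe sets. The values were 0.50 for Cbln2, 0.065 and 0.071 for the Cbln3 probe sets 1422911_at and 1455445_at, 0.67 for Cbln4, and 1.19 for C1ql2. They were -0.43 for C1ql3 1425176_at and 0.47 for C1ql3 1451620_at, -0.92 for Nrxn2 1455499_at, 0.19 for Nrxn3 1433788_at and -1.03 for Nrxn3 1438193_at. The Cbln3 calls (adjusted p = 0.0493 and 0.0486) were each lost in 9 of 12 fits that left out 1 array, that of Nrxn3 1433788_at in 7 and that of C1ql3 1425176_at in 6. Centring each array on its median left 0.018 and 0.024 for Cbln3 (adjusted p = 0.445 and 0.334, limma).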

How the results depend on the processing

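Leaving out each array in turn gave 3 to 4 of the 19 probe sets past both thresholds in the amygdala (5 with all arrays), 0 to 1 in the hippocampus (0) and 1 to 2 in the cerebral cortex (1), and 0 to 1 partners in the cerebral cortex (1). For the CMS effect between the cortical areas it gave 4 to 10 probe sets (10). Those fits and the between-area replicate block were chosen after seeing the data. Same-numbered CMS and control arrays did not pair, with correlations of their deviations between -0.058 and 0.013. With a replicate block, 3 amygdala probe sets passed and 6 between cortical areas, and C1ql3 1451620_at of the prefrontal cortex no longer did (adjusted p = 0.0654, limma).

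Counts in the amygdala were 3 by genes, 3 by the most variable probe set and 11 with no fold threshold, those of the hippocampus 1 after median centring, 2 with array weights and 13 with no fold threshold. Those of the cerebral cortex were 2 in the fit of 24 arrays, 2 after quantile normalization, 2 with array weights, 0 by genes, 0 by the most variable probe set and 8 with no fold threshold, and the prefrontal count was 1 with no fold threshold. Between cortical areas 6 passed after median centring. Partner counts by the most variable probe set were 3 (amygdala), 1 (hippocampus) and 6 (cerebral cortex), with no fold threshold 29, 29, 21 and 9 in the 4 areas, and in the cerebral cortex 2 after quantile normalization and 2 with the less variable probe sets left out. By the methods' test without shared spread, the cerebral cortex calls of Cbln1 1423287_at, Cbln2, Cbln4, C1ql3 1425176_at and Nrxn2 1455499_at were lost (adjusted p of 0.0572 to 0.111). By the adjusted p alone, array weights added 8 prefrontal and 4 cerebral cortex probe sets, and the fit of 24 arrays 3 and 1.

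Under the settings run, values that had not passed the test turned sign, as did the untested Cbln3 1422911_at of the amygdala (-0.0046 after median centring, -0.0059 after quantile normalization). Without each array, so did the untested Cbln1 1423288_s_at (-0.026 to 0.49), Nrxn3 1439629_at (-0.026 to 0.10) and Nrxn3 1456137_at (-0.15 to 0.043) of the hippocampus and Nrxn3 1432931_at (-0.34 to 0.085) and 1439629_at (-0.088 to 0.049) of the amygdala. In the cerebral cortex, C1ql1 was 0.040 with array weights, 0.014 after median centring and -0.075 to 0.054 without each array. C1ql3 1451620_at was 0.0042, 0.024 and -0.027 to 0.025 in the same order, and 0.042 after quantile normalization. Nrxn3 1433788_at was 0.068, 0.022 and -0.048 to 0.050, and 0.084 after quantile normalization, and Nrxn3 1439629_at was 0.019 with array weights and -0.25 to 0.033 without each array. In prefrontal cortex, array weights gave 0.22 for Cbln1 1423287_at and 0.049 for Cbln2, quantile normalization gave 0.049, 0.071 and, for Cbln3 1422911_at, -0.0046, and Cbln1 1423287_at was -0.17 to 0.035 without each array. Between the CMS effects of the cortical areas, median centring gave -0.0083 for C1ql3 1425175_at and -0.044 for Nrxn2 1435907_at, which was -0.063 to 0.080 without each array, and Nrxn3 1439629_at was -0.10 to 0.18. Between controls, leaving out arrays gave -0.010 to 0.13 for Cbln1 1423286_at, -0.035 to 0.063 for Nrxn3 1433788_at and -0.17 to 0.11 for Nrxn3 1439629_at. The cause was not tested. Arrays give no absolute signal here, so what dim signal limits is not known.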
